A study of Mus musculus with 4 samples.

Results

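Surface markers are the membrane proteins by which mesenchymal stem cells and pericytes are recognised and sorted. The 9 genes followed here were Nt5e, Thy1, Ly6a, Alcam, Cd200, Mme, Mcam, Cspg4 and Cd34. A probe set was taken for a gene where that gene was its only symbol in the platform annotation. This gave 8 probe sets for 8 of the 9 genes, out of 41345 probe sets and 22180 named genes on the array. No probe set carried Ly6a as its symbol, and Ly6a was not analysed here. A further probe set named for Cd34 together with a second gene was left out by the same rule.

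RNA came from mouse bone marrow mesenchymal stem cells and was measured on 4 Affymetrix arrays, 1 for each group. The groups were Snail1-KO cells given TGF-b1 for 2 h, untreated Snail1-KO cells, Snail1-WT cells given TGF-b1 for 2 h and untreated Snail1-WT cells. The labels do not say how the knockout was made, what the strain and age of the animals were, or whether the cultures were separate or clonal. Values are log2 values from RMA, an array summary that equalises the arrays, and a difference of 1 is 2-fold.

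With 1 array in each group there is no replicate, so no difference was tested and no p-value is given. As a yardstick, a noise SD was computed for each gene: the spread, per pair of arrays, of the disagreement between the TGF-b1 responses of the 2 genotypes among the 500 genes nearest in level. Only genes that passed the filter on low values, given below, were used for it. Genes below that filter, such as Nt5e, or just above it, such as Cd200, therefore share the noise SD of the lowest genes kept, which may not be their own. A genotype difference also holds any spread between cultures that both pairs of arrays share, which the noise SD leaves out. In bulk RNA, fewer cells of a type and less RNA per cell cannot be told apart.

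Mesenchymal stem cells are adherent stromal cells of the marrow that can form bone, fat and cartilage. They have no single defining protein and are recognised by a panel of surface proteins, together with the lack of blood cell proteins. The panel differs between species: Cd34, which is expected to be missing from cultured human cells, is often found on mouse cells. Pericytes, which wrap small vessels, share much of the panel and add Mcam and Cspg4. TGF-b1 signals through SMAD proteins, and Snail1 is a repressor that binds E-boxes in DNA.

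The labelled knockout and cell type were checked first. Snai1, the targeted gene, measured 5.34 in treated and 5.09 in untreated Snail1-KO cells, against 7.63 in treated and 6.69 in untreated Snail1-WT cells. All 19 other mesenchymal stromal surface markers listed for comparison had a probe set, and 17 of them lay among the 60% of genes with the highest mean, that is at a mean of at least 4.51. On every array Pdgfra, Pdgfrb and Itgb1 measured at least 10.13, and Eng and Cd44 at least 8.25. Other genes of the list were low: Lepr measured 2.86 to 3.20 and Fap 3.67 to 3.86, both below the filter. Ngfr measured 4.83 to 5.52 and Icam1 5.10 to 5.26. Of 13 measured haematopoietic markers 4 passed that filter, as did 5 of 9 endothelial and 4 of 7 epithelial markers, where 60% of all genes pass by definition. The pan-leukocyte gene Ptprc measured 3.78 and 3.49 in treated and untreated Snail1-KO cells and 3.42 and 3.15 in treated and untreated Snail1-WT cells. The mean level of the haematopoietic list lay between 4.27 and 4.41 on the 4 arrays, that of 9 endothelial markers between 4.53 and 4.62 and that of 7 epithelial markers between 4.38 and 4.49. These ranges lie near the array medians of 4.58 to 4.63 over all probe sets, although Cd14, Cd68 and Flt1 reached 6.59, 6.23 and 6.89. No measured gene of the 3 lists was 2-fold apart in any comparison between 2 arrays. Between 0.984% and 1.7% of the genes that passed the filter were in these comparisons, so a count of 0 says little.

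Among the 8 measured genes, Mme and Cd200 stood out, each in its own way. Mme, a surface peptidase, was about 3-fold higher in Snail1-KO cells whether or not TGF-b1 was given. Cd200, an immune-inhibitory ligand, was high on 1 array alone, that of Snail1-KO cells given TGF-b1. Mcam, an adhesion molecule of pericytes, was higher after TGF-b1 in both genotypes and lower in Snail1-KO cells. Cd34 was modestly higher in Snail1-KO cells, and Thy1, Alcam, Cspg4 and Nt5e differed by less than 1.5-fold in every comparison between 2 arrays.

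**Figure D1:**
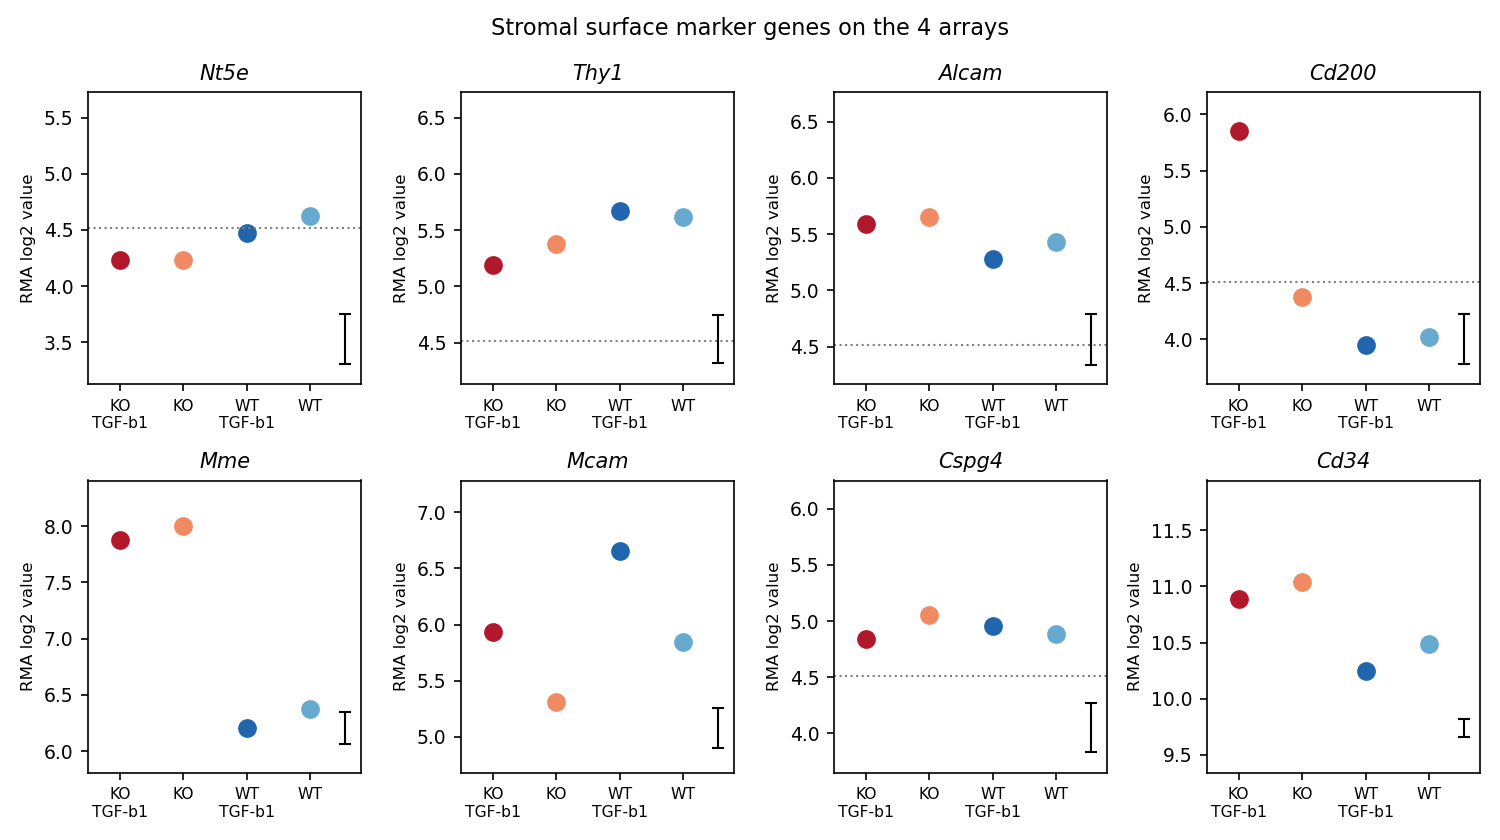
RMA log2 values of the 8 measured surface marker genes on the 4 arrays, 1 point per array, with KO for Snail1-KO and WT for Snail1-WT cells. Every panel spans the same height on the log2 scale, the black bar at lower right reaches 1 noise SD to either side of its centre, and the dotted line marks 4.51, the lowest mean level kept. Mme separates the genotypes, Mcam is high in treated Snail1-WT cells, and Cd200 lies above the dotted line in treated Snail1-KO cells alone.

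The filter on low values kept 7 of the 8 genes and left out Nt5e, whose mean was 4.39. Cd200 passed with a mean of 4.55, and it did so through the treated Snail1-KO array, because the other 3 arrays lay below 4.51. Among the 7 genes kept, 1 was at least 2-fold apart in the TGF-b1 response of Snail1-KO cells (Cd200), where 1.31% of all 13308 genes kept were. None was in the response of Snail1-WT cells, where 0.984% of all genes kept were. In the genotype comparison 2 were 2-fold apart with TGF-b1 (Cd200 and Mme, background 1.7%) and 1 without it (Mme, background 1.57%). At so few genes these shares are a description of the named genes and not of surface markers as a class. Over the 8 measured genes the median difference was -0.10 in the Snail1-KO response and -0.11 in the Snail1-WT response. Over all named genes, without the filter, it was -0.02 and -0.0066. The median genotype difference of the 8 genes was 0.10 with and 0.20 without TGF-b1, against -0.017 and 0.0053 over all named genes.

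**Figure D2:**
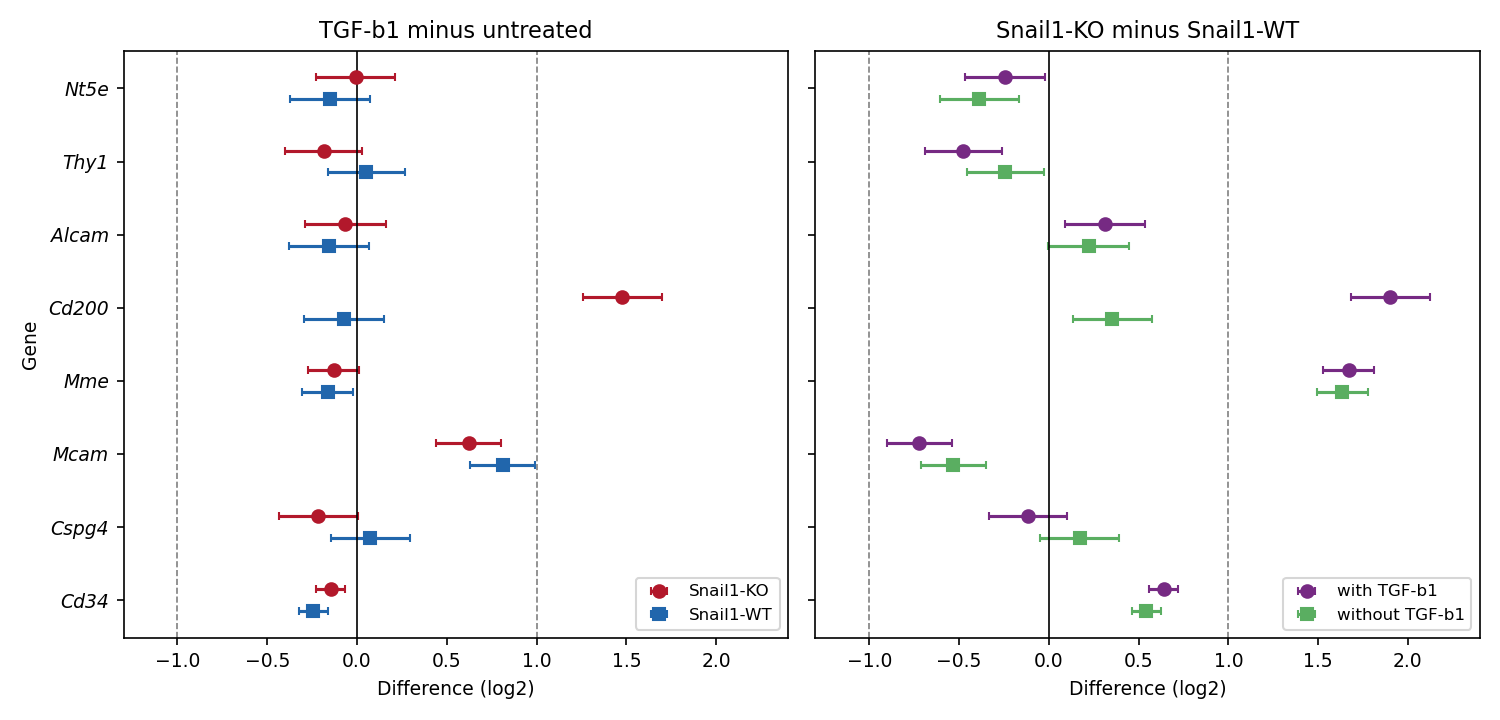
Differences of log2 values between 2 arrays for each gene, with TGF-b1 minus untreated on the left and Snail1-KO minus Snail1-WT on the right. Error bars reach 1 noise SD to either side, and dashed lines mark 2-fold. Mme lies past 2-fold in both genotype comparisons and Cd200 in the Snail1-KO response and in the genotype comparison with TGF-b1.

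Promoter windows from RefSeq (assembly GRCm38.p6, 250 bases before to 50 after an annotated start) were found for 7 of the 9 genes, with 3 windows for Mme. They were searched on both strands for the E-box CAGGTG, the SMAD motif GTCTG and the interferon response element core GAAANNGAAA. The 3 windows printed belong to the genes with the largest range over the 4 arrays, Mme, Cd200 and Mcam, so that their letters can be set beside their values. For Mme the window that holds a match is shown, and the other Mme windows hold none of the 3 motifs. Each is written 5′ to 3′ on the strand of its gene, with motif matches in capitals (CAGAC and CACCTG are GTCTG and CAGGTG read on the other strand).
Cd200, chr16:45409004-45409303, minus strand: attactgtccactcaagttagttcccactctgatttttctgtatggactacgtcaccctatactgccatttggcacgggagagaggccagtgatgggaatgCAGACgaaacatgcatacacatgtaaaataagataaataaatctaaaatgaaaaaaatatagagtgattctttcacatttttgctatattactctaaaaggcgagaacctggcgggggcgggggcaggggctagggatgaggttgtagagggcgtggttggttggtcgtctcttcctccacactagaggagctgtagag
Mme, chr3:63295622-63295921, plus strand: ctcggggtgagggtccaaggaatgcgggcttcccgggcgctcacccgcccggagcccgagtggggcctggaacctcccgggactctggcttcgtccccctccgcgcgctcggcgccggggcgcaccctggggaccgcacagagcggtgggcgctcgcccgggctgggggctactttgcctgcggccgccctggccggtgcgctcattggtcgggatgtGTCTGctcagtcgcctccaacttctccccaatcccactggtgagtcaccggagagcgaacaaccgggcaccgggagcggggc
Mcam, chr9:44134408-44134707, plus strand: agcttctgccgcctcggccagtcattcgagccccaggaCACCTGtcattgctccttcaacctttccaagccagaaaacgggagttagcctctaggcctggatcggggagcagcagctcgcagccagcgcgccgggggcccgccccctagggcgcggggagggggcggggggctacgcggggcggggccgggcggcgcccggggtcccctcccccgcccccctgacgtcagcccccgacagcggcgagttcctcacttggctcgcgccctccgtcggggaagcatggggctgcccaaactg

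In the Cd200 window the SMAD motif begins 149 bases before the start, in the Mme window it begins 32 bases before, and the E-box of the Mcam window begins 212 bases before. The E-box was found in 2 of the 7 genes (Alcam and Mcam), against 22.6% of 27025 genes with such windows. The SMAD motif was found in 4 of 7 (Nt5e, Cd200, Mme and Cspg4), against 53.2%, and the interferon element core in 0 of 7, against 3.99%. A match is a description of letters and shows no binding, and a window without one says nothing of sites elsewhere.

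Mme encodes neprilysin (CD10), a zinc peptidase that faces outward and cuts small signalling peptides, and it is found on marrow stromal cells and on early lymphoid cells. It measured 7.88 in treated and 8.01 in untreated Snail1-KO cells, against 6.21 in treated and 6.37 in untreated Snail1-WT cells. Both Snail1-KO arrays were thus above both Snail1-WT arrays. Snail1-KO minus Snail1-WT was 1.67 with TGF-b1 and 1.64 without it, which is 3.18-fold and 3.11-fold, and the noise SD at its level was 0.14. These pairs share no array, and Mme ranked 18th and 17th from the top among 13308 genes. TGF-b1 itself moved Mme little: the responses were -0.13 in Snail1-KO and -0.16 in Snail1-WT cells, both about as large as the noise SD. Of its 3 promoter windows 1 held the SMAD motif and none the E-box.

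The 3 genes whose profile over the 4 arrays was nearest to that of Mme, each centred on its own mean, were Uchl1, Serpinb8 and Scara5, at Euclidean distances of 0.11, 0.12 and 0.18 log2 units. Uchl1, a ubiquitin hydrolase gene best known from neurons, was higher in Snail1-KO cells by 1.61 with and 1.497 without TGF-b1. Serpinb8, a protease inhibitor gene, was higher by 1.80 and 1.59, and the scavenger receptor gene Scara5 by 1.85 and 1.57. Likeness over 4 arrays is a weak criterion and says only that these genes also separated the genotypes and differed by less than 1.5-fold after TGF-b1.

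Relatives of Mme differed between the genotypes in both directions. Of 11 measured genes of the neprilysin family and other surface peptidases, 7 passed the filter and none of the 7 was 2-fold apart in any comparison between 2 arrays. Between 0.984% and 1.7% of all genes kept were, so a count of 0 says little. The median genotype difference of the 11 genes was -0.18 with and 0.04 without TGF-b1. Phex, a neprilysin relative that acts in bone mineralisation, was higher in Snail1-KO cells by 1.09 with and 1.19 without TGF-b1. It failed the filter, at 3.53 and 3.79 in treated and untreated Snail1-WT cells, so the size is uncertain. The aminopeptidase gene Anpep (CD13), itself a stromal and pericyte marker, was 5.64 and 5.06 in treated and untreated Snail1-KO cells, against 6.06 and 5.34 in Snail1-WT cells. Its genotype difference was -0.42 with and -0.28 without TGF-b1, opposite in sign to that of Mme.

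Cd200 encodes a membrane glycoprotein of the immunoglobulin superfamily that restrains myeloid cells through its receptor and marks primitive stromal cells in several sorting schemes. It measured 5.85 in treated and 4.37 in untreated Snail1-KO cells, against 3.95 in treated and 4.02 in untreated Snail1-WT cells. One array was high and the other three lay below 4.51. The response to TGF-b1 was 1.48 in Snail1-KO cells, or 2.78-fold, and -0.07 in Snail1-WT cells, with a noise SD of 0.22. The printed promoter window of Cd200 held 1 SMAD motif, found in 53.2% of all genes with windows. The genotype difference was 1.90 with TGF-b1 and 0.35 without it.

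The Snail1-KO response minus the Snail1-WT response was 1.55 for Cd200, with a noise SD of 0.31 for such a difference of differences. Among all genes kept 0.338% were at least 2-fold apart by this measure, and 0.888% of all named genes were when low values were not filtered out. Cd200 was the 1 gene of the 7 that was, but it passed the filter through the array that makes the difference, so nothing is read from these shares. All 3 of these differences rest on the same treated Snail1-KO array. They are therefore not separate observations, and because the other arrays were near the low end of the scale their sizes are uncertain.

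The TGF-b early target list was set beside Cd200 to show the response on the same arrays. In Snail1-KO cells 10 of its 11 measured genes were at least 2-fold higher after TGF-b1, against 9 of 11 in Snail1-WT cells, where 0.999% and 0.714% of all genes kept were. Ccn2, a matricellular gene, was higher by 3.82 in Snail1-KO and 2.84 in Snail1-WT cells, Skil, a brake on SMAD signalling, by 3.31 and 2.62, Pmepa1 by 3.06 and 2.51 and the hyaluronan synthase gene Has2 by 2.58 and 2.61. The median response of the list was 1.80 in Snail1-KO and 1.37 in Snail1-WT cells, and its median difference of the responses was 0.33. Between the untreated arrays, Snail1-KO minus Snail1-WT was negative for all 11 genes, from -1.06 to -0.10 with a median of -0.51. Between the treated arrays the median was 0.05, with 6 differences above 0 and 5 below. The larger median response in Snail1-KO cells thus went with lower untreated values, whereas by the median the treated arrays were nearly level. Both Snail1-WT values of Cd200 lay below 4.51, so whether Cd200 responded there cannot be read from them.

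The profiles nearest to Cd200 were those of Ctla2b, Odf3l1 and Prg4, at distances of 0.507, 0.511 and 0.525 log2 units, all larger than those found for Mme. Prg4, which encodes the joint lubricant lubricin, was higher after TGF-b1 by 1.35 in Snail1-KO and by 0.65 in Snail1-WT cells. Ctla2b responded by 1.07 and 0.52 and Odf3l1 by 0.83 and 0.19. All 3 had a positive response in Snail1-WT cells, where that of Cd200 was -0.07. The Snail1-WT values of Cd200, Ctla2b and Odf3l1 all lay below 4.51, so no contrast is read from these signs. The 4 CD200 receptor genes, normally on myeloid cells, were all below the filter, with values of 2.63 to 3.77 over the 4 arrays. Cd200r2 was the member that differed most, by 0.58 with TGF-b1 at values of 3.20 in Snail1-KO and 2.63 in Snail1-WT cells.

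**Figure D3:**
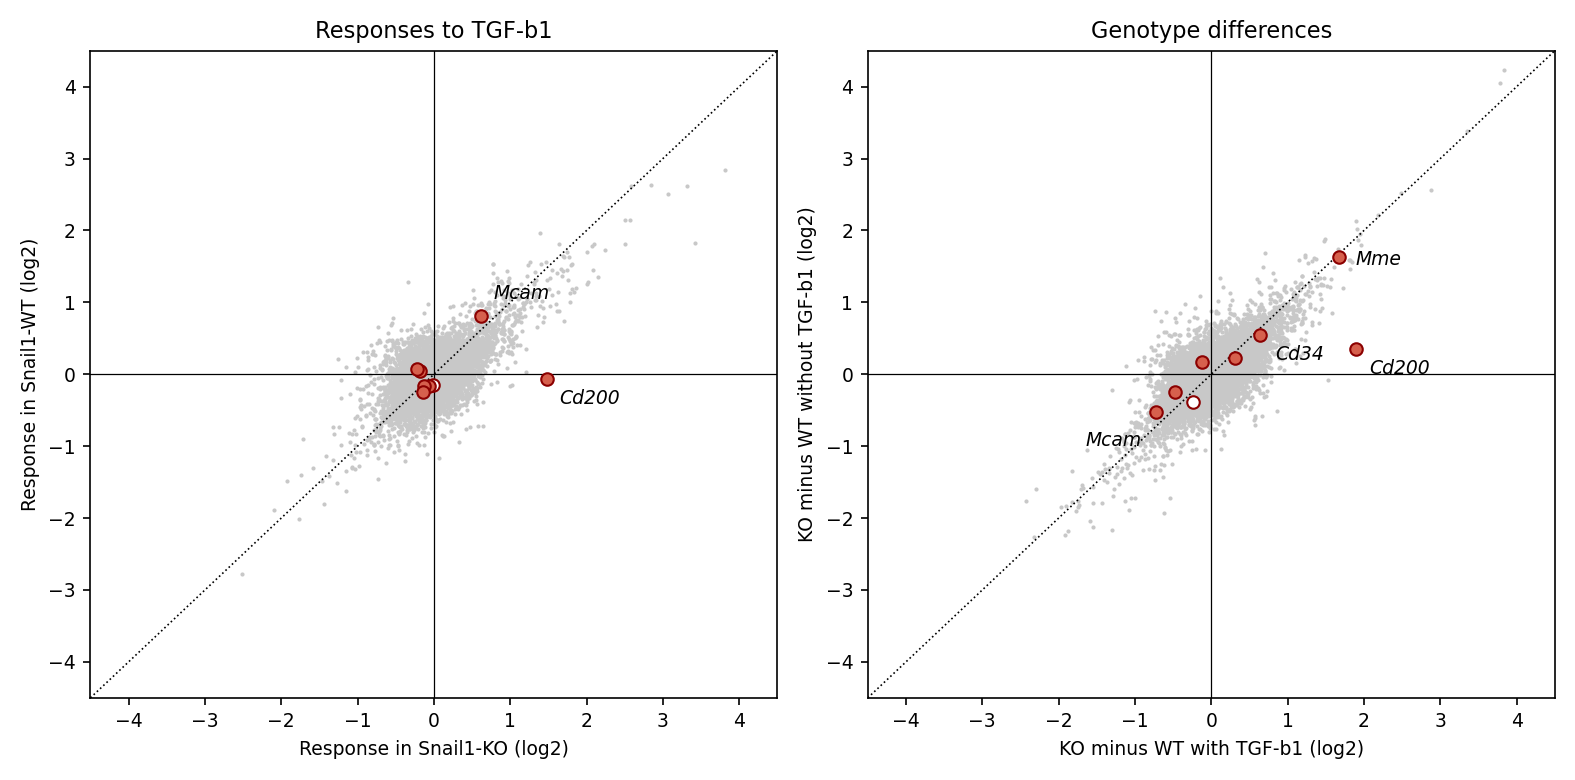
Each grey point is 1 of the 13308 genes kept, with the TGF-b1 responses on the left (Snail1-KO across, Snail1-WT up) and the genotype differences on the right (with TGF-b1 across, without it up), all in log2 units. Filled circles are the 7 surface marker genes kept, the open circle is Nt5e, and the dotted line marks equal values. Mme lies on the dotted line at 1.67 and 1.64, whereas Cd200 lies far from it in both panels.

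Mcam encodes CD146, a cell adhesion molecule of the immunoglobulin superfamily on pericytes, endothelium and the marrow stromal cells that support blood stem cells. It measured 5.93 in treated and 5.31 in untreated Snail1-KO cells, against 6.65 in treated and 5.84 in untreated Snail1-WT cells. Within each genotype the treated array was the higher, and at each treatment the Snail1-WT array was the higher, so that treated Snail1-KO cells were near untreated Snail1-WT cells. The response to TGF-b1 was 0.62 in Snail1-KO and 0.81 in Snail1-WT cells, or 1.54-fold and 1.75-fold. The noise SD at its level was 0.18. Its printed window was the one of the 3 with an E-box.

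Mcam ranked 398th from the top in the Snail1-KO response and 170th in the Snail1-WT response, which share no array. Its genotype difference was -0.72 with and -0.53 without TGF-b1, ranking 202nd and 555th from the bottom. Neither response nor either genotype difference reached 2-fold. The response in Snail1-KO minus that in Snail1-WT cells was -0.19, with a noise SD of 0.26 for such a difference. At a threshold of 1.5-fold Mcam was among the 2 genes apart in the Snail1-KO response (background 5.14%), the 1 gene apart in the Snail1-WT response (background 4.37%) and the 4 genes apart between the genotypes with TGF-b1 (background 8.14%).

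Cspg4 encodes NG2, a large transmembrane proteoglycan of pericytes and of glial progenitors. It measured 4.84 in treated and 5.06 in untreated Snail1-KO cells, against 4.96 in treated and 4.89 in untreated Snail1-WT cells. Its whole range over the 4 arrays was 0.22, about as large as the noise SD, and the arrays of both genotypes and both treatments overlapped. No order can be read from these values.

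Other pericyte and mural genes did not reach 2-fold. Of 13 measured genes 10 passed the filter, and none was 2-fold apart in any comparison between 2 arrays. Between 0.984% and 1.7% of all genes kept were in these comparisons, so a count of 0 says little. The member that differed most was Anpep, with a response to TGF-b1 of 0.58 in Snail1-KO and 0.72 in Snail1-WT cells, close to the responses of Mcam. Pdgfrb responded by 0.69 and 0.63. The median of the list was -0.08 between the genotypes with TGF-b1 and -0.19 without it. With TGF-b1 10 of the 13 genes were lower in Snail1-KO cells and 3 higher, and without it 8 were lower and 5 higher. Tagln was among the lower genes, at -0.62 with and -0.70 without TGF-b1 and a noise SD of 0.092.

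Cd34 encodes a sialomucin of blood progenitors, endothelium and many fibroblastic cells, where it modulates adhesion. It measured 10.89 in treated and 11.03 in untreated Snail1-KO cells, against 10.25 in treated and 10.49 in untreated Snail1-WT cells. Both Snail1-KO arrays were above both Snail1-WT arrays. The genotype difference was 0.64 with and 0.54 without TGF-b1, or 1.56-fold and 1.46-fold, ranking 542nd and 642nd from the top. The noise SD at this high level was 0.081. After TGF-b1 Cd34 differed by -0.15 in Snail1-KO and -0.24 in Snail1-WT cells. Its relative Podxl, the 1 measured gene of 2 listed sialomucins, failed the filter and differed by -0.31 and -0.41 between the genotypes with and without TGF-b1.

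Thy1 (CD90), a small lipid-anchored glycoprotein of fibroblasts and T cells, measured 5.19 in treated and 5.38 in untreated Snail1-KO cells, against 5.67 in treated and 5.62 in untreated Snail1-WT cells. Both Snail1-KO arrays were below both Snail1-WT arrays, by -0.48 with and -0.24 without TGF-b1 at a noise SD of 0.21. Alcam (CD166), an adhesion molecule of the immunoglobulin superfamily, went the other way. It measured 5.59 in treated and 5.65 in untreated Snail1-KO cells, against 5.28 in treated and 5.43 in untreated Snail1-WT cells. Both Snail1-KO arrays were above both Snail1-WT arrays, but the differences of 0.31 and 0.22 were at most 1.40 times the noise SD.

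Nt5e (CD73) encodes the surface enzyme that turns AMP into adenosine, which dampens inflammation. It measured 4.23 in treated and 4.24 in untreated Snail1-KO cells, against 4.47 in treated and 4.62 in untreated Snail1-WT cells. The genotype difference was -0.24 with and -0.39 without TGF-b1, with a noise SD of 0.22, and the responses were -0.0066 in Snail1-KO and -0.15 in Snail1-WT cells. The gene failed the filter, so its values say little about the enzyme.

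Nt5e was set beside 14 other genes of adenosine production, uptake and sensing. Of 9 measured genes 6 passed the filter. Alpl, tissue-nonspecific alkaline phosphatase, which can also release adenosine from AMP, was the 1 gene lower by at least 2-fold in each pair, at -1.82 with and -1.78 without TGF-b1, against a background for lower genes of 0.631% and 0.744%. Enpp3, which breaks down extracellular nucleotides, measured 8.79 in treated and 8.88 in untreated Snail1-KO cells, against 7.94 in treated and 7.74 in untreated Snail1-WT cells. Its difference of 1.13 without TGF-b1 passed 2-fold, against a background for higher genes of 0.827%, and that of 0.85 with TGF-b1 did not. None of the 9 genes was 2-fold apart after TGF-b1 in either genotype. Of all genes kept 1.31% were in Snail1-KO and 0.984% in Snail1-WT cells, so a count of 0 says little.

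Ly6a itself, the Sca-1 gene and an interferon-inducible member of the LY6 family, had no value. Of 12 measured genes of the LY6 and uPAR family 6 passed the filter. The lymphocyte antigen genes Ly6c2 and Ly6c1 were the 2 genes at least 2-fold higher in Snail1-KO cells with TGF-b1, at 1.11 and 1.01, where 1.07% of all genes kept were. Without TGF-b1 Ly6c2 was higher by 1.05 and Ly6c1 by 0.89, so that 1 of the 12 passed 2-fold, where 0.827% of all genes kept were. The response of Ly6c1 to TGF-b1 was -0.96 in Snail1-KO and -1.08 in Snail1-WT cells. These genes are near-identical neighbours, so their probes may share signal and the pair is not 2 observations.

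The interferon-response list differed between the genotypes on the same arrays. The median difference of its 12 measured genes was 0.56 with and 0.83 without TGF-b1. The list was not uniform: differences ran from -0.14 to 1.49 with and from -0.18 to 1.88 without TGF-b1. Of the 9 that passed the filter, 2 were at least 2-fold higher with TGF-b1 and 4 without it, where 1.07% and 0.827% of all genes kept were. Ifit1 was higher by 1.49 and 1.88, Oasl2 by 0.63 and 1.29, Usp18 by 1.07 and 0.89 and Gbp3, which failed the filter, by 1.18 and 0.89. Whether this has a part in the LY6 values was not tested.

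A wider set of 19 stromal surface markers was measured next to the 9 genes. Between the genotypes 1 of the 17 that passed the filter was 2-fold apart in each pair, the tetraspanin gene Cd9, where 1.7% of all genes kept were with TGF-b1 and 1.57% without it. It measured 9.28 in treated and 9.58 in untreated Snail1-KO cells, against 7.92 in treated and 8.26 in untreated Snail1-WT cells, and was higher by 1.36 with and 1.32 without TGF-b1. After TGF-b1 the fibronectin receptor subunit gene Itga5 was higher by 1.17 in Snail1-KO and by 0.93 in Snail1-WT cells, and it was the 1 gene past 2-fold in the Snail1-KO response, where 1.31% of all genes kept were. The median genotype difference of the 19 genes was -0.06 with and -0.07 without TGF-b1.

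**Figure D4:**
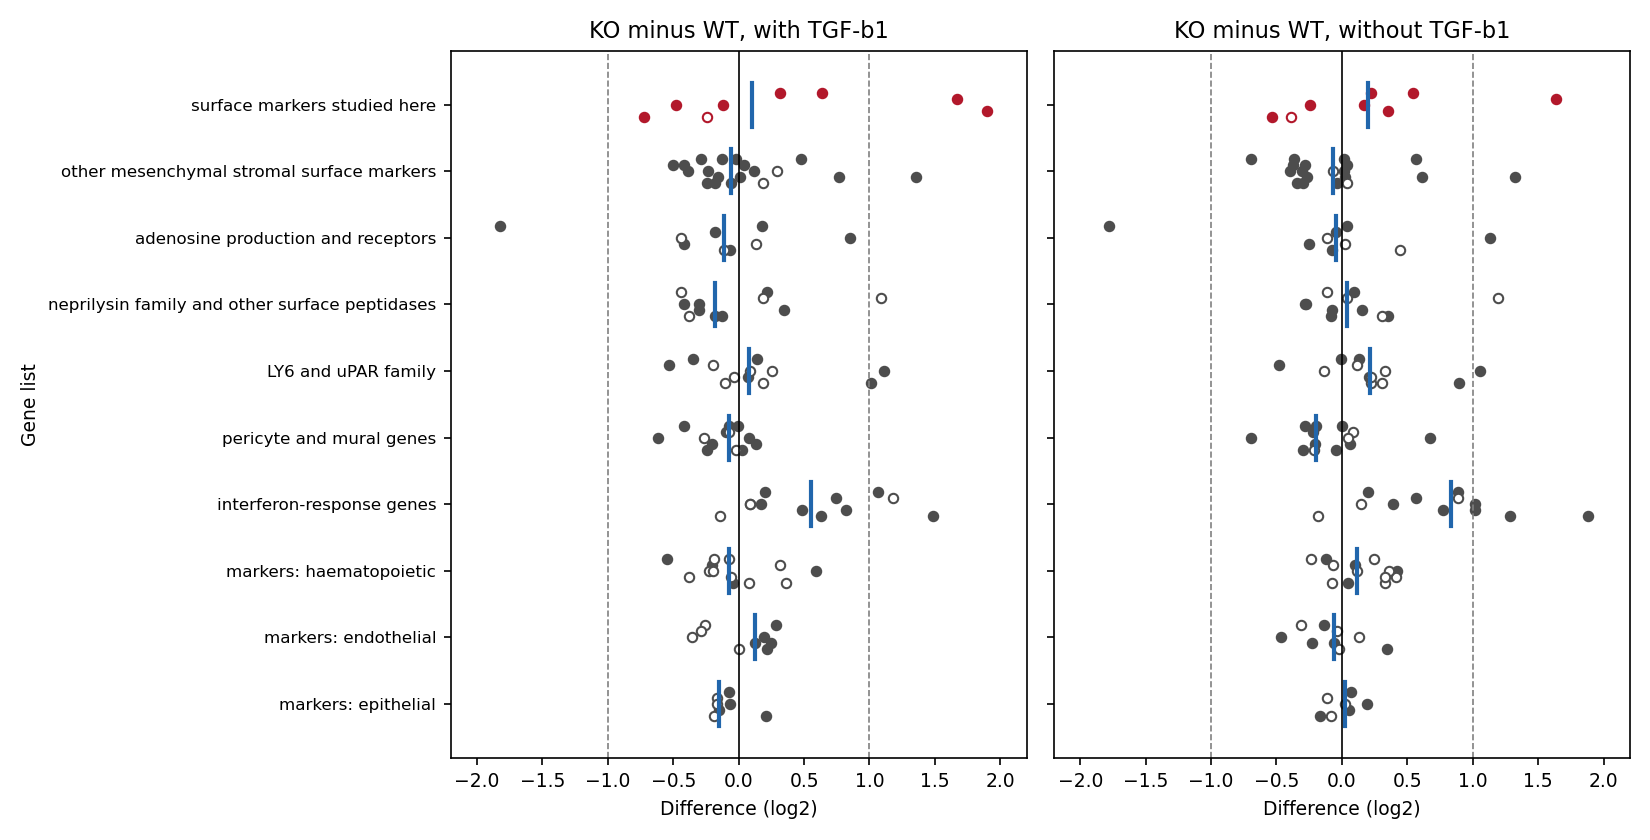
Genotype differences (Snail1-KO minus Snail1-WT, log2) of the genes of each list, with TGF-b1 on the left and without it on the right. Points are genes, filled where they passed the filter on low values and open where they did not, the blue bar is the list's median and dashed lines mark 2-fold. The interferon-response genes have medians of 0.56 and 0.83, and the surface markers spread to both sides of 0.

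The genes were also placed in the gene order of RefSeq assembly GRCm38.p6, after their values were seen. Of the 8 measured genes 4 lie on chromosome 9 (Nt5e, Thy1, Mcam and Cspg4) and 2 on chromosome 16 (Alcam and Cd200). The neighbours did not show the differences of Mme or Cd200. The median genotype difference of the 20 kept genes flanking Mme, 10 on each side, was 0.0047 with and 0.016 without TGF-b1. For those flanking Cd200 the median response to TGF-b1 was -0.06 in Snail1-KO cells. The genes flanking Mcam had a median genotype difference of -0.03 with and -0.06 without TGF-b1. Thy1 lies close to Mcam, so most of their flanking genes are the same and the 2 medians are not separate readings. The median of the genes flanking Thy1 was 0.08 with and -0.0076 without TGF-b1. Between Thy1 and Mcam lie Usp2, at -0.74 with and -0.73 without TGF-b1, and Rnf26, at -0.18 and -0.19. On the other side of Mcam, Cbl differed by -0.17 and -0.38 and Ccdc153 by 0.08 and -0.05. Whether position has a part in these values was not tested. Cd34 lies near the end of its chromosome and had 11 such neighbours, whose median was 0.37 with and 0.12 without TGF-b1, in the direction of Cd34 itself.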

How the data were processed

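The submitters' processing notes name RMA and R 3.1.1 for the log2 values the authors deposited. Per the labels' protocols, biotin labelling of the total RNA followed the WT PLUS kit. No genome build is named. RMA removes any shift shared by most genes, and arrays have no sequencing depth, so their number limits the precision. The deposited log2 values ran from 0.737 to 13.3.

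Groups came from the sample titles and gene names from the platform annotation: 23521 probe sets had 1 symbol, 1814 several, and 16010 were not named here. For genes with several probe sets the one of highest mean was used, and the upper 60% of genes by mean were kept, leaving 13308. Differences between arrays were called at 2-fold. The noise SD is the median absolute deviation of the difference of the responses over 500 of the genes kept. It was scaled by 1.48 to an SD and by the square root of 0.5 to a single pair of arrays. The calculation was tested on simulated data in which the responses of the 2 genotypes differed by noise alone. True differences of the responses, which the arrays may hold, were not simulated.

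The genes and lists were chosen with earlier results of these data known. Genes named were all 9 surface markers, Snai1, at most 4 genes of each list (those at least 2-fold apart, otherwise the one that differed most) and 3 nearest profiles for each surface marker gene past 2-fold. Pdgfra, Pdgfrb, Itgb1, Eng, Cd44, Lepr, Fap, Ngfr, Icam1, Ptprc, Cd14, Cd68 and Flt1 were added after their values were seen, to check the labelled cell type. Tagln and the genes next to Mcam were also added after their values were seen. Alternatives were median centring, cyclic loess (limma 3.58.1 in R 4.3.3), averaged probe sets, keeping all genes or the upper 40%, and calling at 1.5-fold. Other work used Python 3.11.15, numpy 2.4.6, pandas 2.3.3 and matplotlib 3.10.9.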

Additional observations from a re-analysis of the deposited data

Results flagged for a closer look

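For 3 genes the response to TGF-b1 had opposite signs in the 2 genotypes, each on 1 array per group, so the difference was not tested. For Cd200 the responses were 1.48 in Snail1-KO and -0.07 in Snail1-WT cells, a difference of 1.55 at a noise SD of 0.31. Its Snail1-WT response was smaller than the noise SD of 0.22 for a pair of arrays, at values below 4.51, so its sign cannot be read. For Thy1 they were -0.19 and 0.05, a difference of -0.24 at a noise SD of 0.30. For Cspg4 they were -0.22 and 0.07, a difference of -0.29 at a noise SD of 0.31. The genotype difference of Cspg4 likewise changed sign, at -0.12 with and 0.17 without TGF-b1. The differences of Thy1 and Cspg4 are smaller than their noise SD.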

How the results depend on the processing

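The largest shift of any surface marker difference was 0.067 log2 units under cyclic loess and 0.050 under median centring, and the mean of probe sets changed none because each gene had 1. All 120 such recomputed differences moved by less than the noise SD, and no 2-fold difference changed sign. Those from averaged probe sets could not move. Median centring shifts every gene of a comparison alike, here by less than the smallest noise SD of 0.081. Only the cyclic loess values could therefore have moved by more than the noise SD. Of 30 recomputed counts of genes called, 24 were equal to the main count. With a 1.5-fold threshold, 2 genes were called in the Snail1-KO response (Cd200 and Mcam), 1 in the Snail1-WT response (Mcam), where the 2-fold count was 0, and 4 between the genotypes with TGF-b1 (Cd200, Mme, Mcam and Cd34). With the filter at 40% of genes, 3 of the 8 genes stayed in and Cd200 did not, so 0 were called in the Snail1-KO response and 0 in the difference of the responses, and 1 (Mme) between the genotypes with TGF-b1. All calls of Cd200 thus depend on a filter that lets it pass. The labels give no replicate numbers to pair arrays by. An additive fit of genotype and treatment over the 4 arrays, which leaves 1 residual degree of freedom, was not run, and leaving out an array would empty a group. Signal near background limits Nt5e, Cd200 and Cspg4.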
